A study of Mus musculus with 38 samples.

Results

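Of the 47777 regions of histone H3 acetylated at lysine 27 (H3K27ac) listed in mouse liver after a 10 h fast, 18890 (39.5%) shared no base with any region listed in fed liver or in liver fasted for 24 h. These are called 10 h only regions here, and the 28887 regions that shared at least 1 base with one of those lists are called the other 10 h regions. The members were chosen by their presence in the 10 h list and absence from the other 2 H3K27ac lists, so their acetylation strength and width are given as a description and support nothing. The sites of CREB, phosphorylated CREB (pCREB) and the glucocorticoid receptor (GR) played no part in the choice, and the results below turn on them.

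H3K27ac is laid down by the coactivator acetyltransferases p300 and CBP and marks active enhancers and promoters. In fasting, glucagon raises cAMP in hepatocytes, protein kinase A phosphorylates CREB bound at cAMP response elements, and pCREB recruits those same coactivators. Corticosterone, the main glucocorticoid of rodents, enters the cell and binds GR, which then binds DNA at glucocorticoid response elements. Both pathways are known for switching on gluconeogenic genes in the liver.

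Chromatin was immunoprecipitated from livers of C57BL/6 mice that were fed ad lib, fasted for 10 h or fasted for 24 h. It was also taken from primary hepatocytes, isolated by collagenase perfusion, that were given 10 nM glucagon with 1.7 uM corticosterone for 1 h, 10 nM glucagon alone for 1 h, or nothing. Each of the 3 H3K27ac lists was made from the pooled libraries of the 3 samples of its group. The site lists used were CREB and pCREB of 24 h fasted and of fed liver (3 samples each, of which the list names give 2), CREB of hepatocytes given both hormones (2 samples), given glucagon (2 samples) or untreated (1 sample), and GR of hepatocytes given both hormones (2 samples). A further 2 lists, named for pCREB of hepatocytes given glucagon and of untreated hepatocytes, matched no sample and were not used, so pCREB below is that of liver alone. No CREB, pCREB or GR list of a 10 h fasted liver was analysed here, so every overlap below sets acetylation at 10 h beside sites from another feeding state or from cultured cells. The labels give neither the sex nor the age of the mice, and mice with a deletion or a transgene are not mentioned.

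The 3 H3K27ac lists held 29917 regions in fed liver, 47777 at 10 h and 32103 at 24 h, covering 35.4, 52.5 and 37.0 Mb. The lowest z-score, the caller's measure of how far a region stands above its background, was 10.9 for fed liver, 7.72 at 10 h and 8.61 at 24 h. The depth of the libraries is unknown, since the lists give densities and no read totals. With 1 list per feeding state there is no replicate spread and no test, and acetylation present at 10 h alone cannot be told apart from a more permissive calling of the 10 h list. The 95% Wilson intervals of shares and the 95% Katz intervals of ratios below cover counting error only, and regions are not replicates of a condition.

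The 10 h only regions were weak and narrow. Their median highest tag density, on the scale of the authors' lists, was 5.96 (lower and upper quartile 3.84 and 9.22), against 19.4 (11.1 and 35.2) for the other 10 h regions. The densest 10 h only region reached 81.6, against 419 for the densest of the other regions. Their median z-score was 10.4 (8.70 and 14.5), against 31.2 (16.7 and 58.7). Their median width was 399 bp (284 and 558), against 1212 bp (679 and 1896). The smallest width in the list, 251 bp, was held by 12.3% of the 10 h only regions and 0.973% of the other 10 h regions, while 5.98% and 59.1% were wider than 1 kb. Although they made up 39.5% of the regions, the 10 h only regions covered 9.13 Mb, or 17.4% of the acetylated bases, and carried 6.00% of the summed mean density times width.

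The share of 10 h only regions was lower in each stronger class of density. Of the 10 h regions with a density of up to 2, 98.5% were 10 h only, and the share was 77.3% between 4 and 6, 49.2% between 8 and 10, 34.9% between 10 and 15, 13.6% between 15 and 25 and 2.05% between 25 and 50. Above a density of 50, 18 of 3608 regions (0.499%) were 10 h only. A z-score at or above the lowest of the fed list was reached by 8663 of the 10 h only regions (45.9%) and by 90.0% of the other 10 h regions, 72.6% of the whole list. For the lowest z-score of the 24 h list the counts were 14549 (77.0%) and 97.1%, with 89.1% of the whole list.

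**Figure D1:**
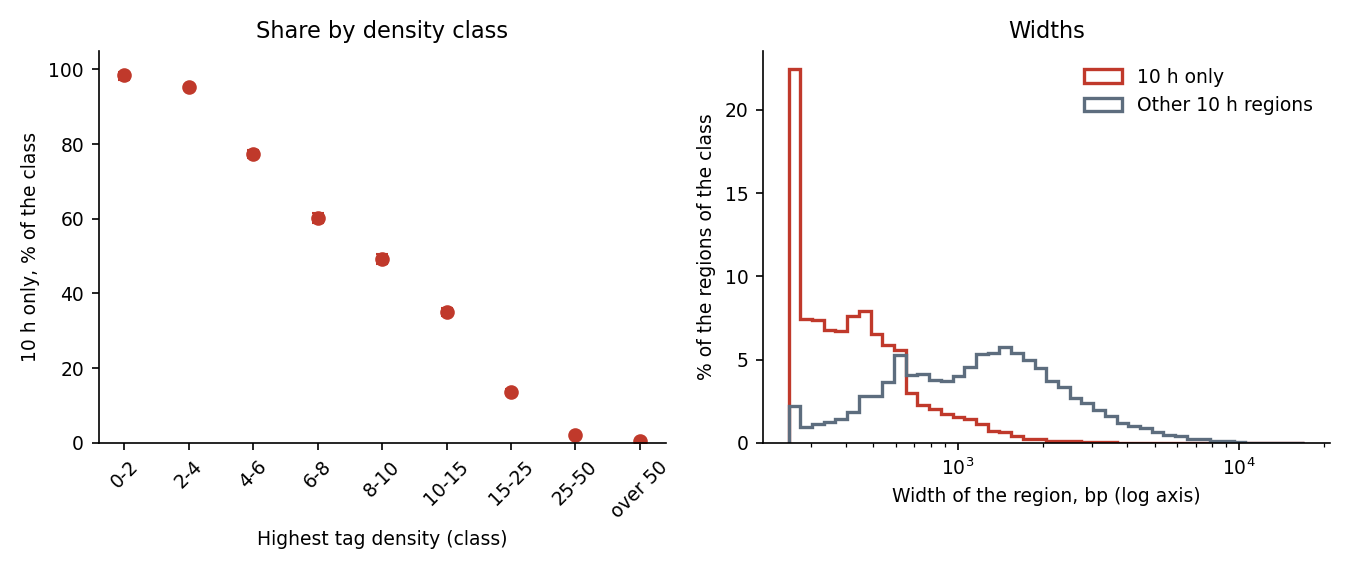
Left, the share of 10 h only regions among the 10 h H3K27ac regions of each class of highest tag density, with 95% Wilson intervals (mostly smaller than the points). Right, the widths of 10 h only regions (red) and of the other 10 h regions (grey) on a log axis. The share was 98.5% in the weakest class and 0.499% above a density of 50, and the median widths were 399 bp and 1212 bp.

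The other 10 h regions were of 3 kinds, and the 10 h only regions were weaker than each. Regions shared with the fed list alone numbered 2765 and had a median density of 11.1 and a median width of 660 bp. Regions shared with the 24 h list alone numbered 3434, with a median density of 9.61 and a width of 608 bp. The 22688 regions in all 3 lists had a median density of 24.2 and a width of 1417 bp.

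The distance of 10 h only regions from the other lists varied widely. The median gap to the nearest fed or 24 h region was 13.7 kb for those without any CREB, pCREB or GR site, 11.8 kb for those with sites of 1 to 3 lists and 22.3 kb for those with sites of 4 or more lists. Over all 18890, 2574 (13.6%) lay within 500 bp and 4452 (23.6%) lay more than 100 kb away. At the edge of the rule, 479 members lay within 100 bp of a fed or 24 h region and had a median density of 8.07, z-score of 10.4 and width of 447 bp. The 256 other 10 h regions that shared no more than 100 bases had medians of 6.91, 9.57 and 408.5 bp. The nearest members touched a neighbour without sharing a base, such as chr17:5574265-5574907 (build mm9; density 7.29, z-score 13.1), whose gap to the 24 h list was 0 bases. On the other side, chr13:96421541-96422234 (density 9.98, z-score 17.0) shared 1 base with the fed list.

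CREB sites of cultured hepatocytes were far less frequent at 10 h only regions than at the other 10 h regions. A site of at least 1 of the 3 hepatocyte CREB lists was present at 4905 of the 10 h only regions, 26.0% (25.3 to 26.6), against 66.0% (65.5 to 66.6) of the other 10 h regions and 50.2% of the whole list. The ratio of the shares was 0.393 (0.383 to 0.403). By treatment, CREB of hepatocytes given both hormones was found at 20.2% and 59.0% (43.6% of the whole list), CREB of hepatocytes given glucagon at 13.1% and 46.4% (33.2%), and CREB of untreated hepatocytes at 18.0% and 57.7% (42.0%). In regions in all 3 H3K27ac lists the share for any hepatocyte CREB site was 72.5%, and in regions shared with the fed or the 24 h list alone it was 45.4% and 40.0%. Hepatocyte CREB remained less frequent at 10 h only regions when the other regions were weighted to the same widths (26.0% against 41.4%) or to the same densities (26.0% against 33.9%).

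Sites of pCREB in liver went the other way. A pCREB site of either feeding state was present at 1884 of the 10 h only regions, 9.97% (9.55 to 10.4), against 5.74% (5.48 to 6.01) of the other 10 h regions and 7.41% of the whole list. The ratio was 1.74 (1.63 to 1.85). It was 2.47 (2.28 to 2.68) for pCREB of 24 h fasted liver, at 7.78% and 3.15% of the regions (4.98% of the whole list), and 1.52 (1.42 to 1.63) for pCREB of fed liver, at 8.32% and 5.47% (6.59%). The order was the opposite when the upper 50% of the 10 h list by density was taken as a whole, with pCREB sites at 5.47% of the 10 h only regions and 6.63% of the others. With the 3 H3K27ac lists reduced to equal length by density the shares were 6.02% and 6.26%. Class by class, however, pCREB was more frequent at 10 h only regions in each class of density except 15 to 25. The shares were 5.58% and 3.88% between 10 and 15, 3.38% and 5.28% between 15 and 25, 13.8% and 7.09% between 25 and 50, and 55.6% and 10.8% above 50, where only 18 regions were 10 h only.

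CREB sites of liver and GR sites were somewhat less frequent at 10 h only regions. A liver CREB site was present at 2505 of them, 13.3% (12.8 to 13.8), against 20.7% (20.3 to 21.2) of the other 10 h regions and 17.8% of the whole list. By feeding state, CREB of 24 h fasted liver was found at 10.6% and 15.6% (13.6% of the whole list) and CREB of fed liver at 11.1% and 18.7% (15.7%). A GR site was present at 1097 of the 10 h only regions, 5.81% (5.48 to 6.15), against 8.41% (8.09 to 8.73) of the others and 7.38% of the whole list, a ratio of 0.691 (0.645 to 0.740). Whether these directions held depended on how the width of the regions was treated. Weighted to the widths of the 10 h only regions, the other regions held GR at 4.07% and liver CREB at 11.0%, so the ratios became 1.43 and 1.20. In fixed 500 bp windows around the midpoints the ratios stayed below 1, at 0.936 for GR and 0.796 for liver CREB. Weighted to the densities, the other regions held GR at 4.17% and liver CREB at 10.1%, again below the 10 h only regions. With 1 z-score threshold for the 3 H3K27ac lists, GR was present at 9.51% of the 10 h only regions and 9.17% of the others.

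**Figure D2:**
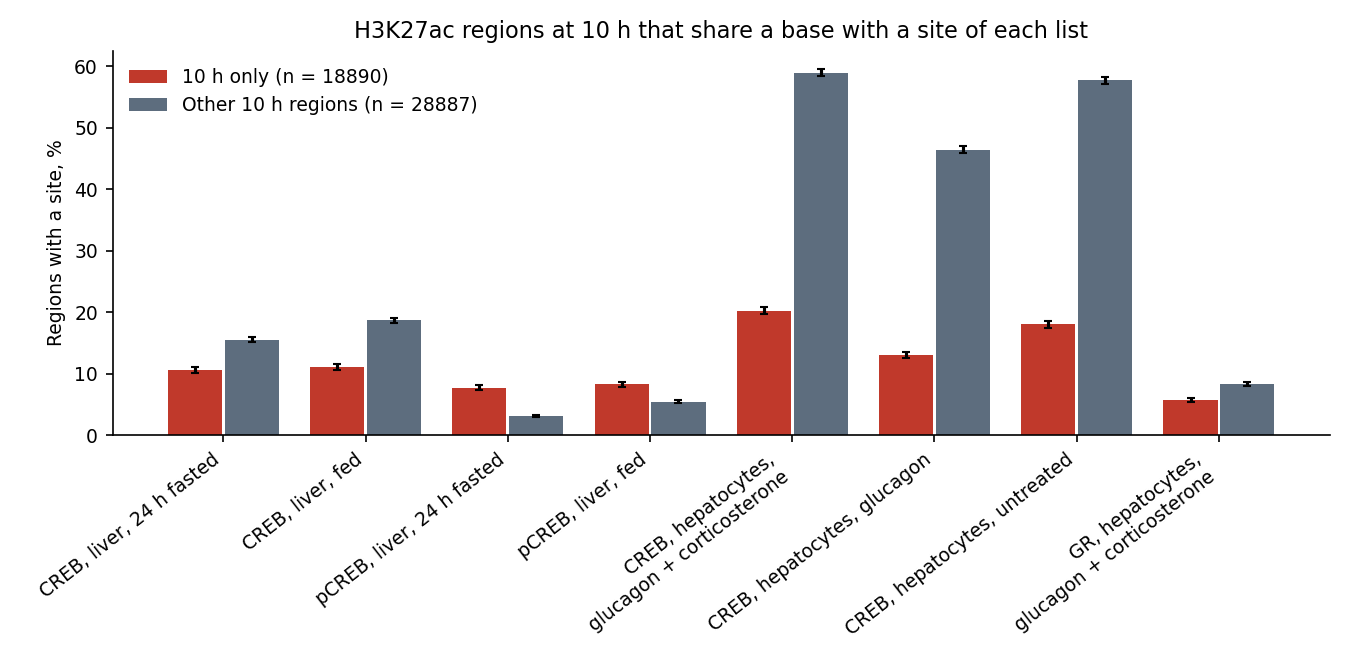
Share of 10 h only regions (red, n = 18890) and of the other 10 h regions (grey, n = 28887) that share at least 1 base with a site of each of the 8 lists; bars show 95% Wilson intervals. The 3 hepatocyte CREB lists stood at 13.1% to 20.2% of 10 h only regions, against 46.4% to 59.0% of the other regions, while both pCREB lists were higher at 10 h only regions.

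Counted as sites per acetylated base, liver pCREB, liver CREB and GR were more frequent at 10 h only regions, and hepatocyte CREB less frequent. Counting the sites that touched each kind of region, pCREB of 24 h fasted liver had 162 per Mb of 10 h only regions and 20.4 per Mb of the other 10 h regions. The values were 171 and 35.3 per Mb for pCREB of fed liver, 212 and 101 for CREB of 24 h fasted liver, 225 and 122 for CREB of fed liver, and 123 and 62.1 for GR. For hepatocyte CREB they were 398 and 444 per Mb with both hormones, 262 and 338 with glucagon, and 371 and 446 without hormone. Counting regions with at least 1 site, the narrower 10 h only regions had more regions per Mb to count. Regions with a pCREB site then numbered 206 per Mb of 10 h only regions and 38.2 per Mb of the other 10 h regions. For liver CREB the values were 275 and 138 per Mb, for GR 120 and 55.9 per Mb, and for any hepatocyte CREB 538 and 439 per Mb. Both ways of counting depend on width, since a site needed to share only 1 base with a region. In equal windows of 500 bp around midpoints, GR was present at 5.81% and 6.21% and liver CREB at 13.3% and 16.7%. In those windows pCREB was present at 10.0% and 4.72%, and hepatocyte CREB at 26.4% and 60.2%.

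Most 10 h only regions had no site of the 8 lists. None touched 12162 of them (64.4%), against 9335 (32.3%) of the other 10 h regions, and 35.6% had a site, with 55.0% over the whole list. The 10 h only regions without a site had a median density of 5.76, a z-score of 9.60 and a width of 365 bp. Those with sites of 1 to 3 lists numbered 4809 and had medians of 7.08 for density and 12.4 for z-score, and the 1919 with sites of 4 or more lists had medians of 6.34 and 17.4. The densest region without a site was chr10:29690453-29690996 (density 52.8, z-score 76.3, width 543 bp). It lay 148 kb from the nearest fed region and 118 kb from the nearest 24 h region. The next was chr1:90150173-90150842 (density 49.8, z-score 25.4).

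Sites of all 8 lists touched 17 of the 10 h only regions (0.0900%) and 77 of the others (0.267%), though not always at the same bases of a region. The densest of the 17 was chr7:87592373-87593582, which was 1209 bp wide with a density of 21.9 and z-score 71.3, and lay 224 bp from the nearest 24 h region. The next was chr6:90549954-90551110 (density 20.9, z-score 15.5).

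Where a 10 h only region held hepatocyte CREB, it was less often listed in every treatment. Of the 4905 such regions, 1803 (36.8%) had CREB in all 3 hepatocyte lists, against 64.0% of the 19074 other 10 h regions with hepatocyte CREB. CREB in the list of both hormones alone accounted for 962 (19.6%), against 8.29%. CREB in the untreated list alone accounted for 748 (15.2%), against 7.65%. CREB in both hormone lists but not in the untreated one accounted for 336 (6.85%), against 3.22%. These shares were not weighted to equal width or density. Regions with CREB in all 3 lists had median widths of 491 bp and 1524 bp, and median densities of 8.96 and 30.2.

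Among 10 h only regions with hepatocyte CREB, GR sites were more frequent where the list of glucagon alone was among their CREB lists. With that list, 14.8% to 29.2% had a GR site, depending on the other lists, and without it 6.79% to 9.76%. At the other 10 h regions the ranges overlapped, with 4.03% to 16.3% with that list and 1.58% to 4.55% without it. Among 10 h only regions with CREB in both hormone lists and not in the untreated list, 29.2% also had a GR site, against 11.5% of the other 10 h regions of that kind. The share was 22.5% and 16.3% where CREB was in all 3 lists, 8.52% and 4.55% where it was in the list of both hormones alone, and 9.76% and 1.58% where it was in the untreated list alone. The GR list and the list of CREB with both hormones come from hepatocytes under the same treatment.

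Combinations of liver sites with each other and with hepatocyte sites differed between 10 h only regions and the other 10 h regions. Of the 2505 10 h only regions with liver CREB, 36.8% (35.0 to 38.8) also had hepatocyte CREB, against 92.4% (91.7 to 93.1) of the 5990 other 10 h regions with liver CREB. A pCREB site was present at 64.5% of those 2505 regions, against 27.1%. Of the 1884 10 h only regions with pCREB, 85.7% had liver CREB and 27.7% hepatocyte CREB, against 98.1% and 82.7% of the 1658 other regions with pCREB. Of the 1097 10 h only regions with GR of hepatocytes given both hormones, 44.6% (41.7 to 47.5) also had pCREB of liver. Among the 2429 other regions with GR the share was 16.9% (15.4 to 18.4). Hepatocyte CREB was present at 70.0% and 94.3%. Sites in the same region need not overlap each other. These shares were not weighted to equal width or density. Regions with both liver CREB lists had median widths of 459.5 and 1465 bp and densities of 5.57 and 31.8. The chromosome X block described below held 399 of the 2505 regions and 357 of the 1884.

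Sites listed in 24 h fasted liver and not in fed liver made up a small group. CREB of 24 h fasted liver without CREB of fed liver accounted for 400 (16.0%) of the 2505 regions, against 9.90% of the other 10 h regions with liver CREB. The matching values for pCREB were 313 (16.6%) of 1884 and 4.76%. Sites listed in fed liver alone were more numerous at the 10 h only regions. For CREB they accounted for 499 (19.9%), against 24.9% of the other 10 h regions with liver CREB. For pCREB they accounted for 415 (22.0%), against 45.2%. Both feeding states were listed at 64.1% and 65.2% for CREB, and at 61.4% and 50.1% for pCREB.

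A subset of the 10 h only regions had z-scores that were high for their density. Over the 10 h list the median z-score per unit of density was 1.70, and 1970 of the 10 h only regions (10.4%) exceeded 3 times that value, against 104 of the other 10 h regions (0.360%) and 4.34% of the whole list. This class was defined after the values were seen. No region of the 10 h list had a z-score below 7.72, so a region of very low density could be listed only with a high z-score per density. The 10 h only regions were mostly of low density, and how much of the difference follows from this floor was not tested. In the fed list 14 regions (0.0468%) and in the 24 h list 16 (0.0498%) exceeded 3 times their own list's median. In the site lists the same share was 20.4% for CREB of 24 h fasted liver, 16.9% for CREB of fed liver, 12.6% for CREB of untreated hepatocytes and 9.77% for GR. It was 5.27% for CREB of hepatocytes given glucagon, 4.36% for pCREB of fed liver, 3.31% for CREB of hepatocytes given both hormones and 2.85% for pCREB of 24 h fasted liver. The 1970 regions had a median density of 2.88, a median z-score of 27.1 and a median width of 380 bp. The z-score exceeded the highest of the fed list, 391, at 20 of the 10 h only regions and 24 of the others.

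**Figure D3:**
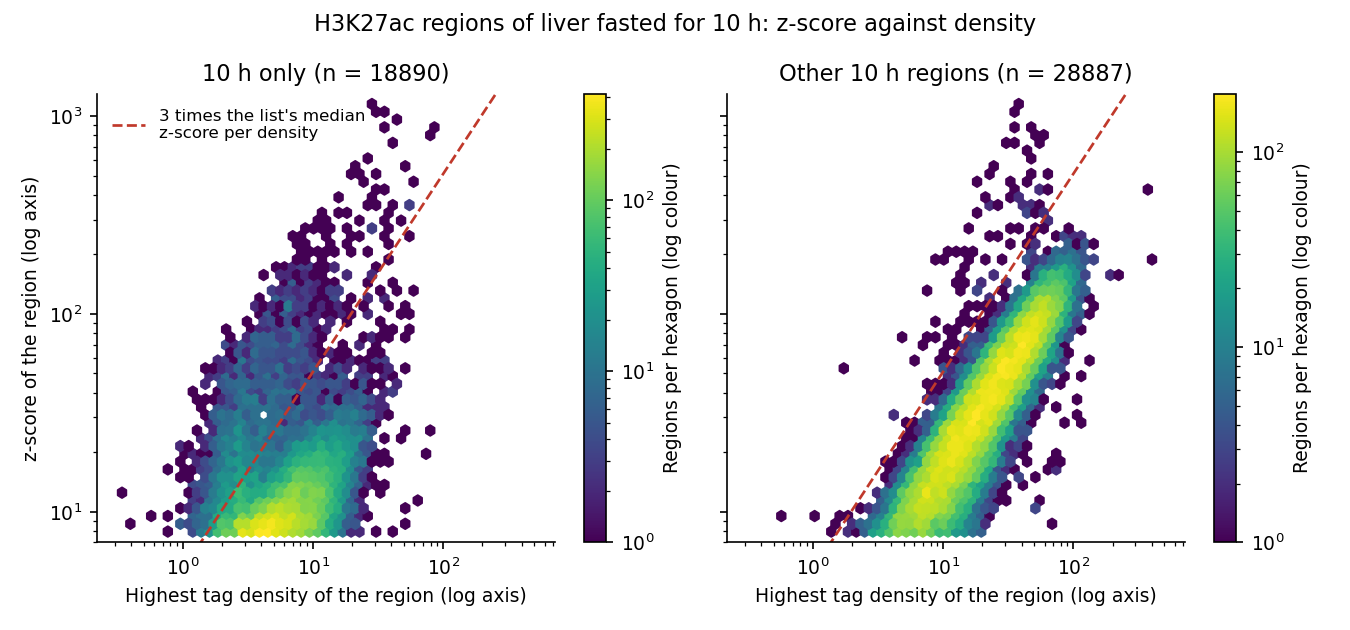
z-score against highest tag density (both log axes) of the 10 h only regions (left) and of the other 10 h regions (right), with the number of regions per hexagon in colour; the dashed line marks 3 times the list's median z-score per density. Above the line lie 1970 of the 18890 10 h only regions and 104 of the 28887 other regions.

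Those 1970 regions, 10.4% of the set, held 458 of the 1097 GR overlaps, 783 of the 1884 with pCREB, 823 of the 2505 with liver CREB and 701 of the 4905 with hepatocyte CREB. GR sites were present at 23.2% (21.4 to 25.2) of them and at 3.78% (3.50 to 4.07) of the remaining 16920. The shares were 41.8% and 9.94% for liver CREB, 39.7% and 6.51% for liver pCREB, and 35.6% and 24.8% for hepatocyte CREB. Any of the 8 lists touched 70.6% and 31.5%. The shares were higher still at the 104 other 10 h regions of this class, which had a median width of 2436.5 bp. There GR was present at 52.9%, liver CREB at 69.2%, liver pCREB at 51.0%, hepatocyte CREB at 86.5% and any of the 8 lists at 95.2%. With such regions left out on both sides, the ratio of 10 h only to other 10 h regions was 0.458 for GR, 0.483 for liver CREB, 1.17 for liver pCREB and 0.377 for hepatocyte CREB. What sets the z-score apart from the density was not tested.

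A pair of regions of this class on chromosome 12 were among the strongest. The densest 10 h only region was chr12:56255512-56257027, with a density of 81.6, a z-score of 900 and a width of 1515 bp, 73.4 kb from the nearest 24 h region. It held CREB in all 3 hepatocyte lists and in both liver lists. The third densest, chr12:56330530-56332148, had density 75.7 with z-score 825 and also held pCREB of both feeding states. All 10 regions of highest z-score exceeded 3 times the median z-score per density. They ranged in z-score from 565 to 1156 and in density from 26.1 to 81.6. All 10 held CREB in all 3 hepatocyte lists, 8 held liver CREB, 7 held pCREB and 3 held GR. Such sites were also common at the 104 other 10 h regions of this class. Of these, 86.5% held CREB of any hepatocyte list, 69.2% liver CREB, 51.0% pCREB and 52.9% GR.

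Chromosome 17 held 4 of those 10. The highest z-score, 1156, belonged to chr17:15114697-15116480 (density 29.6), 8.37 kb from the nearest fed region. It was followed by chr4:61619819-61621967 (z-score 1033, density 32.9) and by chr17:15177475-15179124 (z-score 1028, density 28.6). The widest 10 h only region, chr17:15186468-15192078, spanned 5610 bp at a density of 40.7. The region chr17:13600069-13601543 (z-score 980, density 43.8) and chr17:13321493-13323929 (z-score 478, density 60.1) both held GR with CREB of all 3 hepatocyte lists and no liver CREB. Both lay over 100 kb from the fed and 24 h lists.

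Dense regions with a low z-score were also found. Of the 10 densest, 3 lay on chromosome Y, namely chrY:2786985-2787909 (density 79.4, z-score 26.5), chrY:2879258-2880074 (density 71.9, z-score 19.1) and chrY:2886326-2886732 (density 61.7, z-score 11.6). All 3 held CREB and pCREB of both feeding states in liver and no hepatocyte CREB or GR. Their gaps to the nearest 24 h region were 0.348, 0.985 and 0.046 kb.

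Site frequency varied with the distance to the other H3K27ac lists. From within 500 bp to beyond 100 kb, hepatocyte CREB was present at 36.1%, 25.04%, 30.7%, 28.4% and 14.8% of the 10 h only regions. Over the same 5 classes pCREB was present at 4.97%, 6.42%, 8.97%, 12.6% and 14.7%, liver CREB at 9.21%, 8.70%, 12.5%, 16.7% and 17.6%, and GR at 3.61%, 4.46%, 5.82%, 6.80% and 7.46%. The more isolated regions held pCREB and GR more often and hepatocyte CREB less often. Median density ran from 7.66 to 3.65 over these classes. The share exceeding 3 times the median z-score per density ran through 1.20%, 5.15%, 9.44%, 13.6% and 18.8%, and its part in the gradient was not tested.

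**Figure D4:**
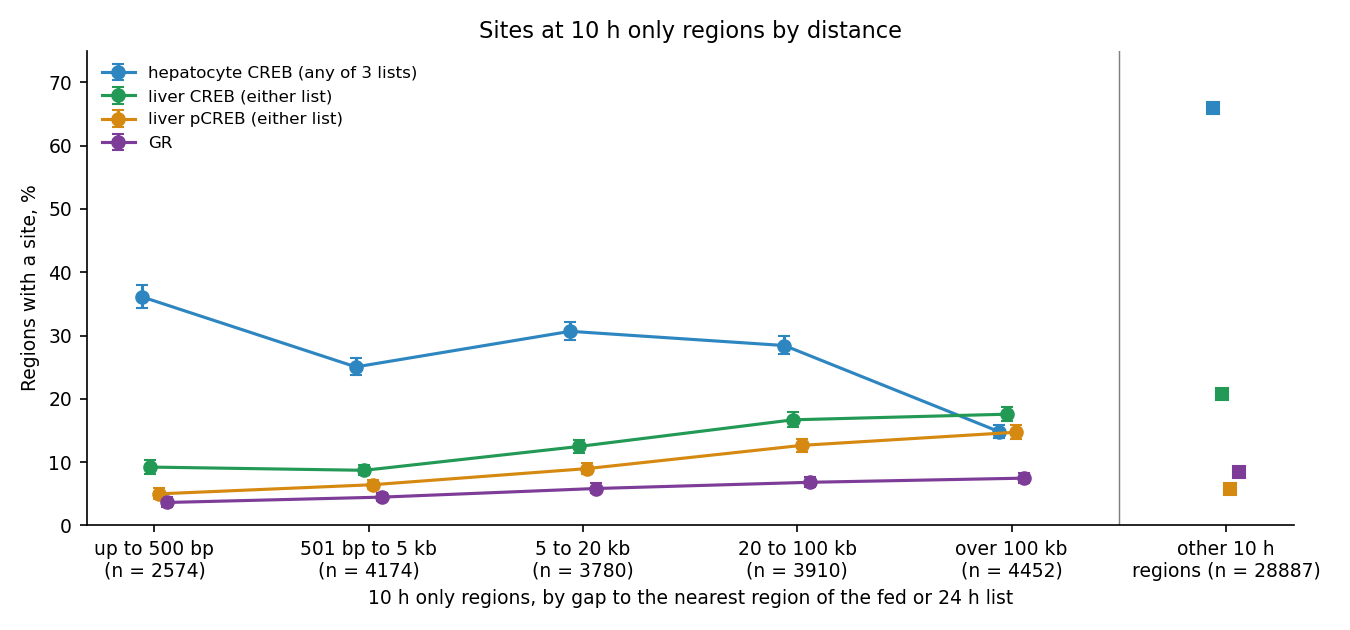
Share of 10 h only regions with a site, by their gap to the nearest region listed in fed or 24 h fasted liver (circles, 95% Wilson intervals), and the share of the other 10 h regions (squares, right). Hepatocyte CREB stood at 36.1% within 500 bp and 14.8% beyond 100 kb, while pCREB stood at 4.97% and 14.7%.

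The 10 h only regions were not evenly spread over the genome. On the autosomes they made up 32.9% (chromosome 11) to 42.3% (chromosome 14) of the 10 h regions. On chromosome X they made up 1202 of 2015 (59.7%), and outside one block described below still 785 of 1531 (51.3%). On X the 10 h only regions held liver CREB in 44.0%, pCREB in 38.8% and GR in 12.6%, against 11.0%, 7.88% and 5.34% of the autosomal 10 h only regions. The other 10 h regions of X also held more of these sites, with liver CREB in 35.3%, pCREB in 21.3% and GR in 11.9%, against 20.1%, 5.02% and 8.23% on the autosomes. Outside the block the 10 h only regions of X did not exceed the other 10 h regions of X for any of the 3: liver CREB was present at 16.6% and 29.5%, pCREB at 13.9% and 14.2%, and GR at 7.26% and 8.71%. Hepatocyte CREB was present at 15.8% of the 10 h only regions on X and 26.7% on the autosomes.

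Crowding was strong in a few places. Of the 2551 windows of 1 Mb with a 10 h region, 56 had at least 20 of the 10 h only regions and together contained 2004 of them (10.6%), against 4.24% of the other 10 h regions. The same windows contained 18.1% of the pCREB sites of 24 h fasted liver, 16.8% of those of fed liver, 14.8% of the CREB sites of 24 h fasted liver and 12.6% of those of fed liver. They contained 6.11% of the GR sites and 3.73% to 3.99% of the sites of the hepatocyte CREB lists. With these windows left out, pCREB was present at 6.49% of the 10 h only regions and 5.37% of the others, a ratio of 1.21, and liver CREB at 9.48% and 20.5%. Joined across gaps of up to 12.5 kb, the members formed 45 groups of 10 or more, of which 18 were on chromosome X and 13 on chromosome 4.

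The largest crowd lay on chromosome X between 120 and 123 Mb. It contained 484 of the 10 h regions, of which 417 (86.2%) were 10 h only, beside 83 regions of the fed list and 97 of the 24 h list. Of the 417, CREB of 24 h fasted and of fed liver touched 91.6% and 90.9%, pCREB of 24 h fasted and of fed liver 79.1% and 78.4%, GR 22.5%, and hepatocyte CREB 9.11%. The shares were higher still at the 67 other 10 h regions of the block, of which all 67 held liver CREB and pCREB, 32 (47.8%) GR and 9 (13.4%) hepatocyte CREB. The 417 members had a median density of 5.96 and a median z-score of 16.6, and 26.9% exceeded 3 times the median z-score per density. The 2 largest groups, chrX:120271858-120337110 and chrX:120504026-120573970, had 41 members each in 65.3 and 69.9 kb.

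A block of chromosome 4 between 60 and 62 Mb was also crowded but held fewer sites. It contained 298 of the 10 h regions, of which 241 (80.9%) were 10 h only, beside 82 regions each of the fed and 24 h lists. Liver CREB touched 22.4% of the 241, pCREB 21.6%, hepatocyte CREB 18.7% and GR 2.90%. At the 57 other 10 h regions of the block the shares were 42.1%, 26.3%, 61.4% and 8.77%. The median z-score of the 241 was 29.5, their median density 7.30, and 41.1% exceeded 3 times the median z-score per density. In the X block the liver CREB lists held 570 and 535 regions of 24 h fasted and fed liver, and in the chromosome 4 block 89 and 110.

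**Figure D5:**
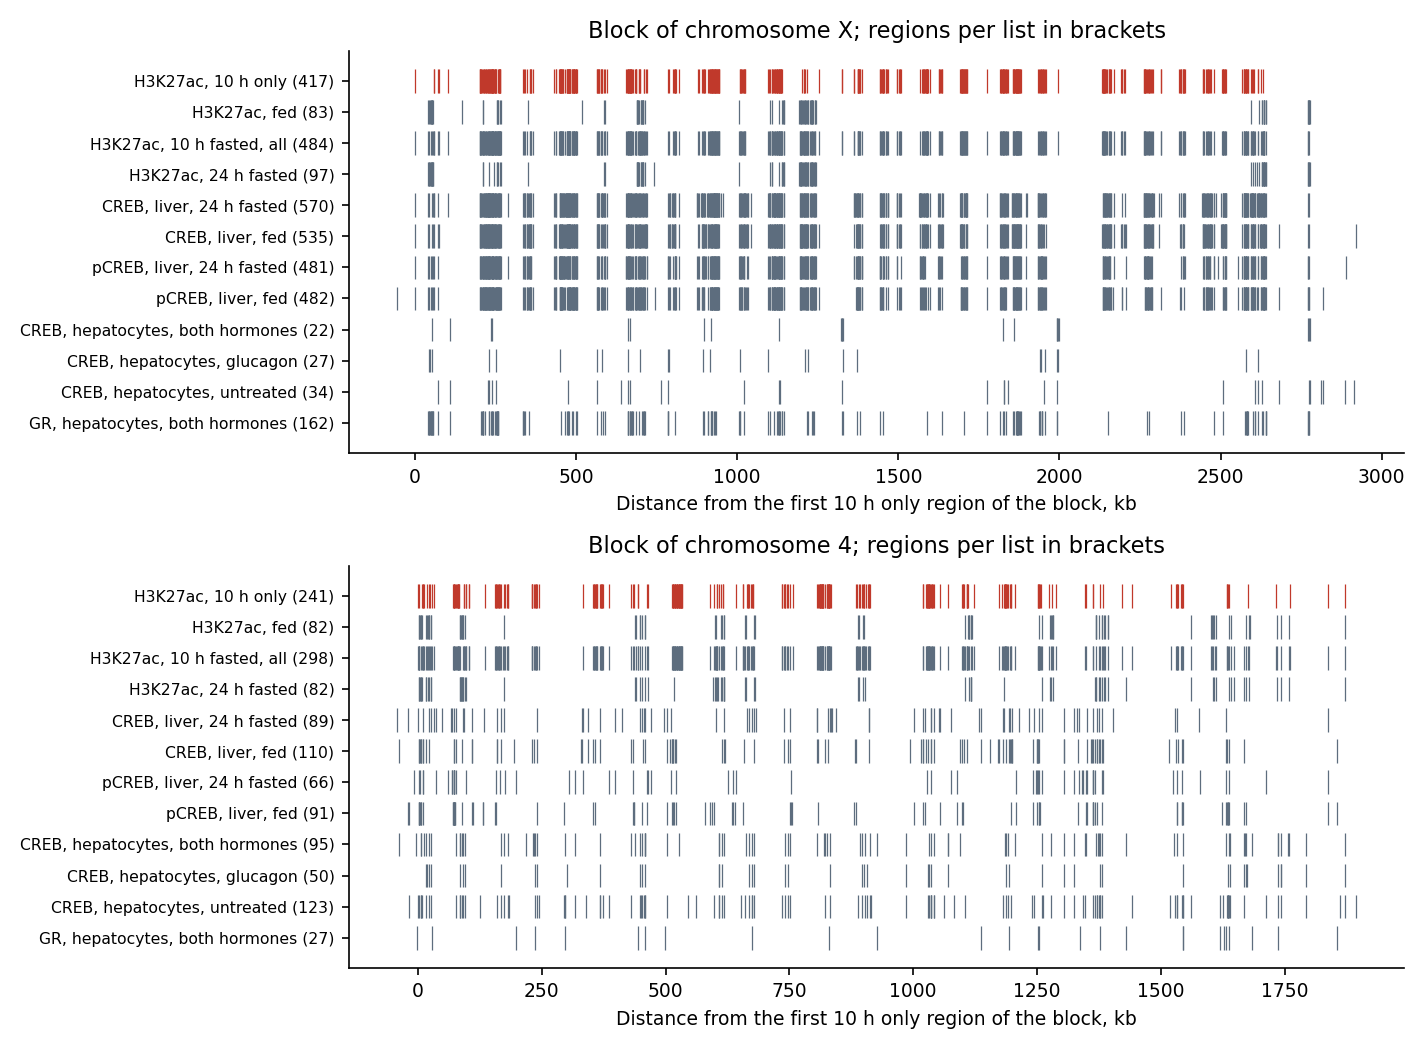
Each tick is 1 region of the named list in the blocks of chromosome X (top) and chromosome 4 (bottom), placed by its distance in kb from the first 10 h only region; numbers of regions stand in brackets. Of the 10 h only regions (red), 95.7% of the 417 on X and 22.4% of the 241 on chromosome 4 share a base with a liver CREB site.

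Other crowded blocks varied in the sites they held. On chromosome 4 between 145 and 147 Mb, 124 of 127 regions (97.6%) were 10 h only, beside 6 regions of the fed list and 4 of the 24 h list, and 76.6% of the 124 held liver CREB, as did 1 of the 3 others. On chromosome 8 between 19 and 21 Mb, 62 of 67 were 10 h only, and 95.2% of the 62 held liver CREB and 25.8% GR, against 2 and 0 of the 5 others. On chromosome 5 between 14 and 16 Mb, 75 of 86 were 10 h only, and 90.7% of the 75 held liver CREB and 28.0% GR, against 8 and 4 of the 11 others. A block of chromosome 2 between 175 and 178 Mb had the opposite makeup. There 88 of 98 regions were 10 h only, and hepatocyte CREB touched 43.2% of the 88, liver CREB 3.41%, pCREB 1.14% and GR 6.82%, against 9, 1, 1 and 3 of the 10 others. The share of 10 h only regions was lower in the remaining blocks, nearer to the 39.5% of the whole list. It was 51.6% (48 of 93) on chromosome 8 between 71 and 73 Mb. For chromosome 7 between 26 and 28 Mb it was 46.9% (45 of 96). Liver CREB touched 60.4% of the 48 and 13.3% of the 45, against 26.7% and 35.3% of the others. Hepatocyte CREB touched 12 of the 48 and 22 of the 45, against 71.1% and 74.5% of the others. Blocks are runs of neighbouring crowded windows, and this way of describing them was chosen after the values were seen.

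Windows with at least 20 members also occurred without any member of high z-score per density. In 10 of the 56 windows none of the 228 members exceeded 3 times the median z-score per density. Members made up 37.7% to 56.8% of the 10 h regions in these windows, against 39.5% over the whole list. The windows were thus rich in 10 h regions of both kinds. The median densities of their members ran from 7.58 to 13.5, above the 5.96 of all 10 h only regions. Hepatocyte CREB touched 9.09% to 65.0% of these members, GR 0% to 4.55% and pCREB 0% to 12.0%. Most members lay apart from each other: 10557 (55.9%) had no other member within 12.5 kb.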

How the data were processed

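The deposited lists of 11 groups were compared. Per the submitters' processing notes, the software was CASAVA 1.8 and the genome build mm9. File names mention hotspot calling; they also mention pooling for the H3K27ac lists and, for 7 of the 8 site lists, a combination of 2 libraries (the untreated hepatocyte name repeats 1 library). The names of the 8 site lists also carry a false discovery rate (FDR) tag, which the H3K27ac names lack. Apart from that tag, the sources used here do not give the aligner or the caller's settings. Per the file headers, the authors' highest and mean tag density of each region is a signal, with no scaling stated. The z-score is a score deposited per region by the authors, its background not stated, per the file headers. The authors' deposited p-value was not used further. A further 2 lists (8 columns), named for hepatocyte pCREB, matched no sample and were not used.

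Overlap meant at least 1 shared base, and width was end minus start. Shares were computed with Python 3.11.15, pandas 2.3.3 and SciPy 1.17.1. The overlap code was tested on simulated data and found all planted overlaps. Named regions were the 10 densest, the 10 of highest z-score, the 5 widest, the 5 densest at GR, hepatocyte CREB, liver CREB, most lists and no list, and those at the edge of the rule. Their leading ones are given. Members and lists were chosen with earlier results of these data known. Alternatives changed the overlap rule, list lengths, thresholds, chromosomes and weighting. Genes, sequences and tissue markers were not analysed here, since no annotation of build mm9 was used.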

Additional observations from a re-analysis of the deposited data

How the results depend on the processing

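No test was made, so the values below are descriptions, and the cause of each change was not tested. No paired analysis was possible because the pooled lists carry no replicate, and for the same reason no replicate could be left out. The alternatives that leave out regions of high z-score per density or crowded windows, or that weight by density, were chosen after seeing the data. The count of 18890 became 9481 with 1 z-score threshold for the 3 lists, 5568 with lists of equal length and 2778 in the upper 50% by density, and lay between 16316 and 19326 under the 5 others. The width ratio of 0.329 became 0.419 with 1 z-score threshold, 0.415 with equal lengths, 0.425 in the upper 50%, 0.357 with gaps of up to 500 bp counted, 0.325 with 50% of the shorter region required, 0.326 without chromosomes X and Y, and 0.324 without crowded windows.

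The GR ratio of 0.691 turned round to 1.43 weighted by width, 1.34 by width and z-score, 1.39 by density and 1.04 with 1 z-score threshold. It was 0.506 with equal lengths, 0.458 in the upper 50%, 0.908 with gaps counted, 0.619 with 50% shared, 0.936 in 500 bp windows around midpoints, 0.482 without pCREB regions, 0.601 without crowded windows, 0.458 without regions of high z-score per density, and 0.943 weighted by width without them.

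The liver CREB ratio of 0.640 turned round to 1.20 by width, 1.08 by width and z-score and 1.31 by density. It was 0.889 with 1 z-score threshold, 0.446 with equal lengths, 0.423 in the upper 50%, 0.713 with gaps counted, 0.796 in midpoint windows, 0.549 without X and Y, 0.327 without pCREB regions, 0.463 without crowded windows, 0.483 without high z-score per density and 0.909 weighted by width without them.

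The liver pCREB ratio of 1.74 turned round to 0.961 with equal lengths and 0.825 in the upper 50%. It was 2.62 with 1 z-score threshold, 1.95 with gaps counted, 2.12 in midpoint windows, 2.45 by width, 2.33 by density, 1.57 without X and Y, 1.21 without crowded windows, 1.17 without high z-score per density and 1.63 weighted by width without them.

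The hepatocyte CREB ratio of 0.393 stayed below 1 under each of the 14 alternatives run. It was 0.519 with 1 z-score threshold, 0.547 with equal lengths, 0.575 in the upper 50%, 0.433 with gaps counted, 0.331 with 50% shared, 0.439 in midpoint windows, 0.627 by width, 0.666 by width and z-score, 0.767 by density, 0.377 without high z-score per density and 0.601 weighted by width without them. Of the 10 regions of highest z-score, 0 remained without high z-score per density.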

Other observations

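Seen from the site lists, 21.7% of the pCREB sites of 24 h fasted liver lay at a 10 h only region and 13.02% at one of the other 10 h regions. For pCREB of fed liver the shares were 20.4% and 20.02%. The order was the opposite for the other lists: 17.1% and 38.7% for CREB of 24 h fasted liver, 15.6% and 40.4% for CREB of fed liver, 8.63% and 45.8% for CREB of hepatocytes given both hormones, 8.46% and 52.0% for glucagon alone, 7.11% and 40.7% for untreated hepatocytes, and 9.40% and 22.7% for GR.

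Sites at 10 h only regions were weaker within their own lists. The median site at a 10 h only region stood at the 60.0th percentile of density in the GR list, against the 79.5th for sites at the other 10 h regions. It stood at the 70.6th and 90.5th percentile for pCREB of 24 h fasted liver, and at the 54.4th and 64.6th for CREB of hepatocytes given both hormones.

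Among regions of like strength the order depended on the site and on the class of density. Between densities of 6 and 8, pCREB touched 8.50% of the 10 h only regions and 2.60% of the others, liver CREB 11.6% and 7.79%, GR 5.86% and 3.32%, and hepatocyte CREB 28.8% and 30.5%. Between 15 and 25, liver CREB touched 8.41% and 18.6%, GR 4.83% and 7.20%, and hepatocyte CREB 47.2% and 69.9%. Between 25 and 50, liver CREB touched 26.9% and 28.1%, GR 6.25% and 10.4%, and hepatocyte CREB 64.4% and 84.5%. Above 50, liver CREB touched 83.3% of the 18 10 h only regions and 40.6% of the others, GR 22.2% and 18.6%, and hepatocyte CREB 55.6% and 94.8%. Hepatocyte CREB was less frequent at 10 h only regions in every class of density.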
